A study of Mus musculus with 5 samples.

Results

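The genes examined here specify or mark neurons of the ventral forebrain, or subpallium, and the inhibitory interneurons born there. They are Dlx1, Dlx2, Dlx5, Dlx6, Gad1, Gad2, Gsx2, Nkx2-1 and Lhx6, 9 of the 21911 protein-coding genes annotated on mm10. They were chosen by name. Each was taken with its longest-span transcript and 50 kb on either side, and every NEUROD2 peak whose midpoint fell in that window was kept. Peaks that shared at least 1 bp were merged into regions. The data are ChIP-Seq peak lists from cerebral cortex dissected from BALB/c embryos at stage E14.5, in mid-gestation, with 1 library for each of 3 NEUROD2 antibodies. Antibody ab1 was raised in mouse, whereas ab2 and ab3 were raised in rabbit. All libraries come from untreated tissue pooled over many embryos of several litters, so there is no contrast between conditions. GFP antibodies of both host species served as the controls of the peak caller. The antibodies are 3 measurements of a single condition, and the pool of cells behind each library holds projection neurons, progenitors and any interneurons that had entered the cortex. Binding in a small group of cells cannot be told apart here from weak binding in all of them.

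NEUROD2 is a basic helix-loop-helix transcription factor of excitatory projection neurons, which are born in the dorsal telencephalon. It binds E-box elements, short sequences of the general form CANNTG. The genes in question belong to the other great lineage of the forebrain. Gsx2 and Nkx2-1 are homeobox genes that pattern the ganglionic eminences, the Dlx homeobox genes drive differentiation of their progeny, Lhx6 acts in interneurons of the medial ganglionic eminence, and Gad1 and Gad2 encode the enzymes that make GABA. Dlx1 and Dlx2, and likewise Dlx5 and Dlx6, lie next to each other on the chromosome in opposite orientation, so the 9 windows form 7 loci.

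Little NEUROD2 binding was called around these genes. The 7 loci, 879.7 kb in all, held 11 peaks, of which 8 came from ab1 and 3 from ab2, with 0 from ab3, and these merged into 9 regions. Gad1 had 4 of the regions, Gsx2 had 2, the Dlx1/Dlx2 pair had 2 and Gad2 had 1. No peak of any antibody lay in the windows of Dlx5, Dlx6, Nkx2-1 or Lhx6. Thus 5 of the 9 genes had a region of any kind, against 78.7% of all protein-coding genes. Only Gad1 and Gsx2 had a region shared by at least 2 antibodies, which is 2 of 9 genes against 67.6% of protein-coding genes, and 0 of 9 had a region of all 3 antibodies, against 26.7%. By antibody, 4 of 9 genes had an ab1 peak in the window, 3 of 9 an ab2 peak and 0 of 9 an ab3 peak, where 77.5%, 70.2% and 27.3% of all genes did. The shares for all genes are a description, and no test was run over genes, since neighbouring genes share peaks. The windows were of ordinary length, with a median of 105.2 kb (102.3 to 171.7 kb) against 117.2 kb for all genes, and held 0 unknown bases.

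**Figure D1:**
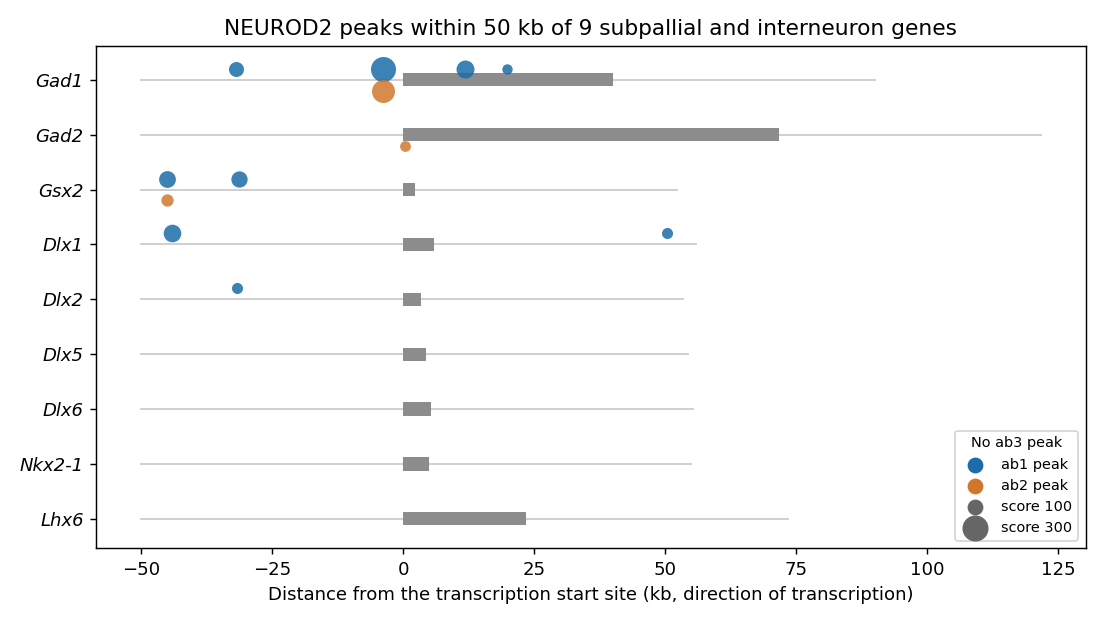
Position of NEUROD2 peaks around the 9 genes, in kb from the transcription start site along the direction of transcription. Grey bars are the gene spans, lines are the windows, and point area is proportional to the peak score. Blue points (ab1) and orange points (ab2) lie at the midpoint of the merged region. The only overlap of ab1 and ab2 is at Gad1 and Gsx2, the ab1 region in both the Dlx1 and the Dlx2 window is drawn for both genes, and the 4 lowest rows are empty.

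The strongest of the 9 regions lay upstream of Gad1, which encodes the larger of the enzymes that make GABA. This region, chr2:70557911-70558600, was called with ab1 at a score of 321 and with ab2 at a score of 269, and was not called with ab3. The score grows with the significance given by the caller, on a −log10 scale multiplied by 10, and the lowest score in the lists was 50. Of all ab1 peaks 71.6% scored lower, and of all ab2 peaks 74.0% did, so the region was above the middle of both lists. Its midpoint was 3786 bp upstream of the start of the longest Gad1 transcript (chr2:70562042-70602014, plus strand). It falls in an intron of a Gad1 transcript that starts farther upstream and of the antisense gene Gad1os. It held 3 copies of the extended E-box. This motif, searched on both strands, has the core CAGCTG, the core CATATG, or the core CAGATG in either orientation, with G or T as the next base. They are shown because this is the only region near a GABA-synthesis gene that 2 antibodies share, with the E-box in capitals and each read 5′ to 3′ on the minus strand of mm10:
Gad1 site at chr2:70558163-70558191: gagaaatgcccCAGATGTgacctaaaaca
Gad1 site at chr2:70558275-70558303: acagccccaaaCAGCTGGtcttcaaggga
Gad1 site at chr2:70558460-70558488: tcaaaaaatgtCATATGGccgtttctttt
The site with the core CAGCTG was the nearest to the middle of the region, 33 bp from the midpoint.

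The other 3 regions of Gad1 were called with ab1 alone, and they are described although they fall outside the rule for single regions, a choice made after their values had been seen. One lay 11766 bp downstream of the start site, in an intron, with a score of 165. Another lay 19835 bp downstream, also in an intron, and scored 55.25, close to the lowest score in the list. The third, 31871 bp upstream with a score of 115, was in introns of Erich2 and Gad1os, and its closest coding start site was that of Erich2. The binding called around Gad1 therefore rested on 1 antibody in 3 of 4 places.

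Gad2 encodes the second GABA-synthesis enzyme. Its window of 171.7 kb was the longest of the 9, and its single region, chr2:22622157-22622894, was called with ab2 alone at a score of 59.8. In the list 12.1% of ab2 peaks scored lower. The midpoint lay 321 bp downstream of the start site, in the untranslated part of the first exon, and this was the only one of the 9 regions within 1 kb of a start site of the 9 genes. The central 200 bp had a GC content of 65.5% and held 0 extended E-boxes. A single copy was found 297 bp from the midpoint, shown here as the only one in a region at a start site of these genes:
Gad2 site at chr2:22622809-22622837, minus strand: gtttcctgttgCAGATGTcaaagctttga
The nearest ab1 peak to the Gad2 start site was 273513 bp away, farther than for 90.9% of protein-coding genes.

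Gsx2 specifies progenitors of the lateral ganglionic eminence. Its gene body (chr5:75075601-75077893, plus strand) and the 30 kb on either side of it held no peak. The region shared by 2 antibodies, chr5:75030279-75030854, lay 45034 bp upstream, in an intron of Chic2, and its closest coding start site was that of Chic2. It scored 144 with ab1 and 77.65 with ab2, values that 48.9% and 27.5% of the peaks of these lists did not reach. It held 1 extended E-box, 36 bp from the midpoint, shown as the counterpart of the central Gad1 site with the same core:
Gsx2 window site at chr5:75030589-75030617, plus strand: ctaatgtggtgCAGCTGGaagagcaatgc
The other region, chr5:75043466-75045123, likewise outside the rule, was called with ab1 alone at a score of 136 and was the widest of the 9 at 1658 bp. Its midpoint was in the first exon of Chic2, 479 bp from the Chic2 start site and 31306 bp upstream of Gsx2, and the GC content of its centre was 75.0%. Neither region at this locus was thus closest to Gsx2.

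Dlx1 and Dlx2 encode homeodomain factors that act together in subpallial progenitors, and the stretch between them is known to hold forebrain enhancers. No peak lay between the genes or inside them. The region with the higher score, chr2:71483636-71484182, was called with ab1 alone at 159 and lay 44204 bp upstream of the Dlx1 start site, in an intron of Metap1d. It held 1 extended E-box:
Dlx1 window site at chr2:71483955-71483983, minus strand: tttgccccctaCATCTGGcagcacttagc
The second region, chr2:71578132-71578651, also chosen after its values were seen, was intergenic, 31638 bp upstream of the Dlx2 start site, and scored 62.6 with ab1 alone. It held 0 extended E-boxes. For this region Dlx2 was the closest coding gene.

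Dlx5 (chr6:6877805-6882085) and Dlx6 (chr6:6863334-6868568), Nkx2-1 (chr12:56531958-56536908) and Lhx6 (chr2:36081953-36105408) had no peak in their windows. In this they join 21.3% of protein-coding genes. The nearest ab1 peak lay 185805 bp from the Dlx5 start site, 167054 bp from that of Dlx6, 170641 bp from that of Nkx2-1 and 78050 bp from that of Lhx6. The nearest ab2 peaks were at 74016, 92767, 121503 and 111171 bp, in the same order. For these 4 genes between 79.7% and 88.3% of protein-coding genes had a nearer ab1 peak, and between 72.0% and 80.1% had a nearer ab2 peak.

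The density of peaks was set against that in the windows of all protein-coding genes. With ab1 the 9 genes had 0.909 peaks per 100 kb and all genes had 2.40. The 8 peaks compare with 21.1 at the density of all genes, and the 95% exact Poisson interval of the count was 3.45 to 15.8. With ab2 the 9 genes had 0.341 peaks per 100 kb and all genes had 1.63, so that 3 peaks (interval 0.619 to 8.77) stand against 14.3. These intervals cover counting error only and take peaks as independent, which clustered peaks are not. With ab3 there were 0 peaks (interval 0 to 3.69) where 2.92 would lie at the density of all genes, so no difference was detectable with ab3 at this depth. On the log2 scale the ratio was −1.40 for ab1 and −2.25 for ab2, with a mean of −1.83. A ratio for ab3 could only be had by putting 3 peaks in place of 0, which gives 0.04, a value whose sign is set by that choice and which is no measurement. With it the mean over the 3 antibodies was −1.21 ± 1.16 (SD), and the two-sided exact permutation test over the signs gave p = 0.5. That p-value rests on the substituted value and is no evidence in either direction. With 3 antibodies the test cannot go below 0.25, and ab2 and ab3 shared their GFP control.

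**Figure D2:**
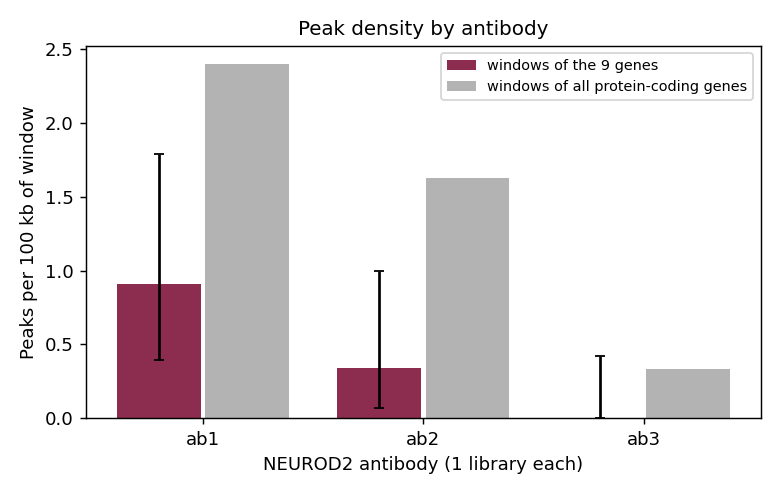
NEUROD2 peaks per 100 kb of window for each antibody, in the windows of the 9 genes (dark bars) and of all protein-coding genes (grey bars). Error bars are 95% exact Poisson intervals of the peak counts. The dark bars stand at 0.909, 0.341 and 0, and only the interval for ab3 reaches the grey bar.

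The distance from the start site to the nearest region of at least 2 antibodies does not depend on a window. Its median was 111065 bp over the 9 genes and 29213 bp over all protein-coding genes. Gad1 was the closest at 3786 bp, with 24.8% of genes nearer, and Gsx2 followed at 45034 bp with 59.2% nearer. Dlx2 at 78873 bp, Dlx1 at 97514 bp and Lhx6 at 111065 bp came next. Dlx6 (167043 bp), Nkx2-1 (170641 bp), Dlx5 (185794 bp) and Gad2 (273513 bp) were the most distant, and for them between 82.8% and 87.9% of genes had a nearer region. Distances of the paired Dlx genes are not independent, because each pair shares its nearest regions.

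**Figure D3:**
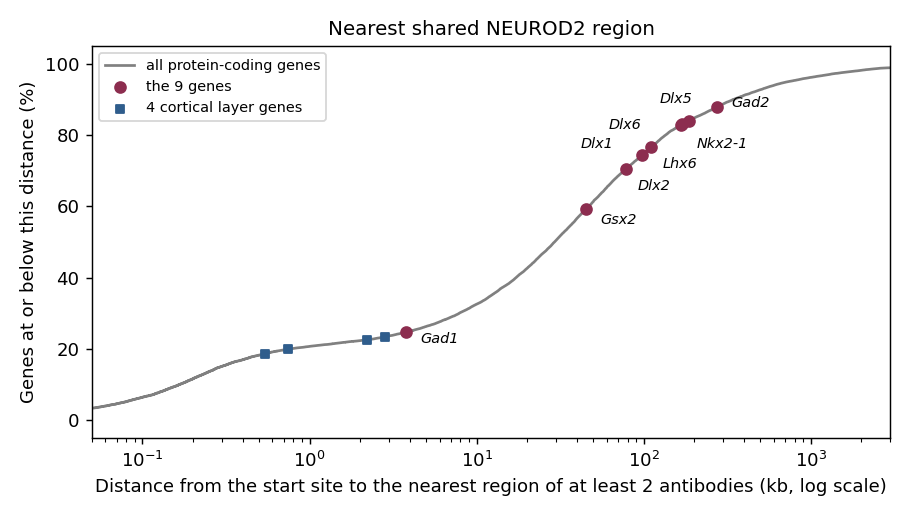
Distance from each start site to the nearest region of at least 2 antibodies, in kb on a log scale, against the percent of protein-coding genes at or below that distance. The grey curve is all protein-coding genes, dark red points are the 9 genes and blue squares are 4 cortical layer genes. Except for Gad1 at 3786 bp, the 9 genes lie at 45034 bp or farther.

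A score that weights each shared region by its distance to the closest coding start site, with an exponential decay length of 5000 bp, was also computed. It follows the idea of the closest-gene method used in the study, but no score of random peaks was subtracted and the decay length was chosen here, so its values are on another scale. It was 0 for 7 of the 9 genes, as it was for 56.2% of protein-coding genes. Gad1 scored 0.469, above 77.4% of genes. Dlx2 was the only other gene above 0, through regions more than 50 kb away, at a value that is negligible on this scale.

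Sequence that NEUROD2 can recognise was present in the windows. They held 1036 extended E-boxes, or 117.8 per 100 kb, against 123.9 per 100 kb in the windows of all protein-coding genes. The median over the 9 genes was 109.5 per 100 kb, against 125.6 over all protein-coding genes. By gene the density ran from 102.0 per 100 kb at Dlx1, with fewer in 6.45% of genes, to 139.3 at Gad1, with fewer in 76.7%. Lhx6 stood near the middle, with fewer in 51.6% of genes, and the other 7 genes, Dlx1 among them, were low, with fewer in 26.7% of genes or less. The empty windows of Dlx5/Dlx6, Nkx2-1 and Lhx6 held 128, 119 and 156 copies. Of the 1036 copies, 16 lay in a region, which is 1.54% (95% Wilson interval 0.953 to 2.49), against 4.05% of the 2058341 copies in all windows. This interval takes copies as independent, which copies in the same region are not, so it is too narrow. By core, 10 of the 16 had CAGATG or its reverse complement, 3 had CAGCTG and 3 had CATATG, out of 534, 297 and 205 copies in the windows.

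The central 200 bp held an extended E-box in 5 of the 9 regions (55.6%, 95% Wilson interval 26.7 to 81.1), against 58.5% of the 53833 merged regions of the series. Without ab1 it was 1 of 3 regions (33.3%). Windows of 200 bp placed 1000 bp outside either end of the 9 regions held it in 3 of 18 cases. That is 16.7% (95% Wilson interval 5.84 to 39.2), an interval that overlaps that of the 9 regions. Both regions shared by ab1 and ab2 carried it, as did 59.6% of all regions of at least 2 antibodies. The 9 regions were called by fewer antibodies than most: 7 of 9 came from a single antibody (77.8%, interval 45.3 to 93.7), 6 of them from ab1, against 40.1% of all merged regions. Their median width was 547 bp, against 746 bp for all regions.

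At the start sites themselves binding was all but absent. Of the 9 genes only Gad2 had a region of any antibody within 1 kb of the start site, against 37.2% of protein-coding genes, and 0 of 9 had a shared region there, against 20.8%. The GC content of the 500 bp around the start sites was between 45.2% and 69.2% with a median of 58.8%, against a median of 57.8% for all genes. Among the 18468 genes with a start site at least as GC-rich as the lowest of these, 43.6% had a region within 1 kb. That cut-off was set by Dlx1 alone and kept most of the 21911 genes, so it does not match genes by GC content. RefSeq promoters (GRCm38), which reach from before to just after the start, were found for 7 of the 9 genes, 9 promoters in all. One of them, of Lhx6, held an extended E-box, against 26.3% of the 32851 promoters in the table, and one, of Gad2, overlapped a peak. The RefSeq start of Dlx1 lies 1332 bp downstream of the start used here.

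The study chose Dlx2, Gad1 and Gsx2 as non-target genes for ChIP-qPCR with ab2, and the places of these amplicons were compared with the peaks. The qPCR measurements were not analysed here, and that choice of genes says nothing of what each amplicon gave. The primers are printed 5′ to 3′ because they mark where binding was assayed, in lower case, with capitals for bases that differ from mm10:
Dlx2 forward primer: gacGgtTgcctcCtttcttg
Dlx2 reverse primer: gtcgagtgcatatcagccac
Gad1 forward primer: ccagggatcgtgcaagcaa
Gad1 reverse primer: gtggtcttggggtctctacg
Gsx2 forward primer: caaaagccagttctctcccg
Gsx2 reverse primer: ggctggtgatggtgatgatg
The Gsx2 pair spanned 108 bp of the first exon, chr5:75076075-75076182, and the nearest ab2 peak ended 45410 bp away. The Dlx2 pair spanned 191 bp of the first exon, chr2:71546349-71546539, once the forward primer, which differs from mm10 at 3 of 20 bases, was placed where it fits best. The nearest ab2 peak was 78774 bp away. The Gad1 primers lie in the first and the second exon of the longest transcript, so that on genomic DNA they span 1631 bp, chr2:70562194-70563824. The nearest ab2 peak, that of the shared region upstream of the gene, was 3594 bp away. None of the 3 amplicons overlapped a peak of ab1, ab2 or ab3, and the peak lists place no binding within 500 bp of any of them.

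The same windows were drawn around 4 genes of cortical layer identity in projection neurons, Fezf2, Bcl11b, Cux1 and Tbr1. The study named 3 of them as targets on these samples, so they are no independent yardstick. Each of the 4 had between 6 and 15 shared regions and at least 1 region of all 3 antibodies. Fezf2, whose window of 104.8 kb is of the same length as most of the 9, had 12 ab1 peaks, 11 ab2 peaks and 4 ab3 peaks. Tbr1 had 8, 8 and 1 in 109.7 kb. The median was 5.44 shared regions per 100 kb for the layer genes, 0 for the 9 genes and 0.949 for all protein-coding genes. The lists did not overlap in this measure. The lowest layer gene, Bcl11b at 3.11, was above 85.2% of all protein-coding genes, so most genes lie below the layer list. The highest of the 9 genes, Gsx2 at 0.978, was above 52.4%. The difference between the lists was not tested, since the genes of both were chosen by name and are not replicates.

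Among 21 further genes of the subpallium and of interneurons, 19 had a region in the window, 18 had a shared region and 10 had one of all 3 antibodies, where 78.7%, 67.6% and 26.7% of all protein-coding genes did. Some of these windows are long, 1175.9 kb for Erbb4 and 667.4 kb for Sox6, and a longer window holds more regions. The median window was 112.7 kb, however, against 117.2 kb for all protein-coding genes. The median density was 1.73 shared regions per 100 kb, against 0.949 for all protein-coding genes. The densest was Cxcr4, a chemokine receptor of migrating neurons, with 7 shared regions in 104.1 kb, and Sox6, a factor of maturing interneurons, had the most, 14 in its long window. No shared region lay in the windows of Lhx8, Sp9 and Vip. Several of these genes, Cxcr4, Sox6 and Prox1 among them, are known to act in other cells of the cortex too.

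**Figure D4:**
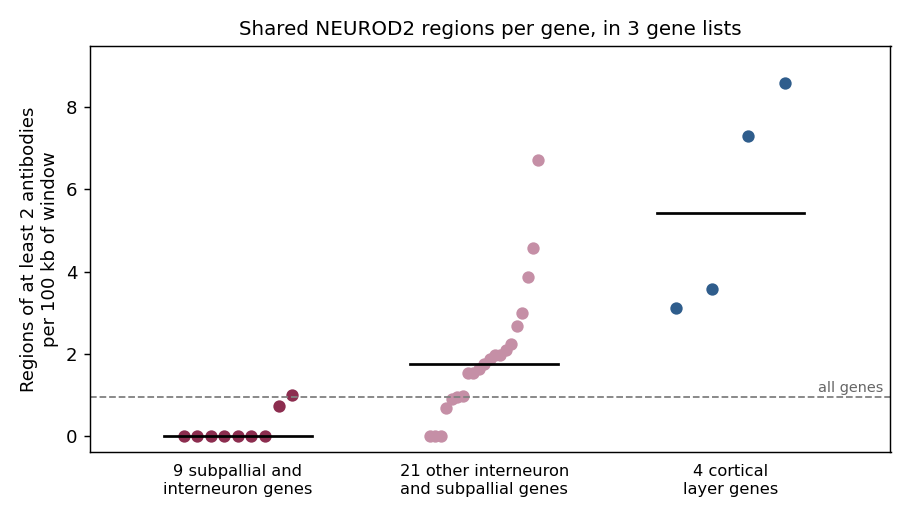
Regions of at least 2 antibodies per 100 kb of window, 1 point per gene, in the 9 genes, 21 other interneuron and subpallial genes and 4 cortical layer genes. Black lines are the medians of the lists (0, 1.73 and 5.44) and the dashed line is the median of all protein-coding genes, 0.949. Of the 9 genes, 7 sit at 0.

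Each of the 9 genes had fewer regions per 100 kb in its window than in the 450 kb beyond either end of it, as did 52.6% of protein-coding genes. The surroundings of the loci differed. Around Lhx6 the 900 kb outside the window held 39 regions, 8 of them of all 3 antibodies, and around Gsx2 and the Dlx1/Dlx2 pair they held 36 and 35. Around Gad2, Nkx2-1 and the Dlx5/Dlx6 pair there were 7, 8 and 10. The empty window of Lhx6 therefore lay in a bound neighbourhood, and those of Nkx2-1 and of Dlx5/Dlx6 in a sparse one.

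The distance of 50 kb decides which regions are counted. Between 50 and 100 kb from the gene ends lay 14 more regions. Of these 14, 7 were shared, against 59.9% of all merged regions, and 0 were of all 3 antibodies, against 13.3%. Of the shared ones 4 were beyond Dlx2, with Dlx2 as the closest coding start site. The strongest, chr2:71629090-71630236, lay 82.9 kb upstream of Dlx2 and scored 1152 with ab1 and 538 with ab2, above every region inside the windows. The next, 90.04 kb upstream, scored 763 and 329. At Gad1 the regions just outside lay 52.7, 55.4 and 59.6 kb away, and the last scored 351 with ab1 and 113 with ab2. No region lay between 50 and 100 kb from Gad2 or Nkx2-1.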

How the data were processed

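Peak lists of the 3 NEUROD2 ChIP-Seq libraries were used. Bowtie was used by the authors to align reads to mm10. Copies of a read and reads without a unique position were dropped, and MACS was run for each antibody with the host-matched GFP immunoprecipitation as control. The deposited score of each peak is 10 times the −log10 of its p-value, not scaled between libraries. The GFP libraries entered only as these controls, read depth cannot be read from peak lists, and stronger enrichment or a deeper library gives more and higher-scoring peaks.

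Peaks on chromosomes 1 to 19, X and Y were taken (51837 with ab1, 35309 with ab2, 7470 with ab3), and merging them gave 53833 regions, 32261 of at least 2 antibodies. Genes are GENCODE M21 on GRCm38, the same build as mm10, and sequence is that of GRCm38 from another strain than BALB/c. The merging, counting and motif search were tested on simulated lists. Tables were made in Python 3.11.15 (pandas 2.3.3, numpy 2.4.6), intervals in scipy 1.17.1 and plots in matplotlib 3.10.9. Intervals cover counting error only. The exact permutation test flipped the signs of the 3 log2 density ratios. A primer with no exact site was placed at its fewest mismatches within 500 bp of its partner, a step added when the Dlx2 primer was not found.

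The genes and lists were chosen with earlier results of these data known. Some genes of the comparison lists are not reported here, and the lists were counted without them. Regions described singly were to be those of 3 antibodies, the highest-scoring of each locus and those within 1 kb of a start site. Alternatives were a score of at least 100, windows of 10 and 100 kb, all transcripts of a gene, an overlap of 50%, each antibody left out, other motif windows and decay lengths, and, chosen after seeing the data, a fixed window of 50 kb around each start site.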

Additional observations from a re-analysis of the deposited data

How the results depend on the processing

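The number of regions in the windows (9) was 4 with windows of 10 kb and 23 with windows of 100 kb, and between 3 (without ab1) and 9 when 1 antibody was left out. The number of shared regions and of genes with one (2 and 2) was 1 and 1 with a score of at least 100 or with windows of 10 kb, and 9 and 4 with windows of 100 kb. Both ran from 0 to 2 without 1 antibody, and were 0 without ab1 and 0 without ab2, since both shared regions combined these antibodies. The number of genes with a region within 1 kb of the start site (1) was 0 with a score of at least 100 or with shared regions alone, and from 0 to 1 without 1 antibody, because the Gad2 region is of ab2. The share of regions with the motif (55.6%) was 83.3% with a score of at least 100, 88.9% with CANNTG or with the whole region searched, and 100% of the 2 shared regions. It ran from 33.3% (1 of 3 regions, without ab1) to 62.5% (5 of 8, without ab2) when 1 antibody was left out. The log2 density ratio (−1.21) stayed below 0 in each alternative, from −1.83 (without ab3) to −0.53. Its value and p-value depend on the 3 peaks put in place of a count of 0. The number of amplicons with a peak was 0 in each alternative run. The median percentile of the closest-gene score was 0 too, but a gene with no shared region assigned to it scores 0 at any decay length, so this says nothing about stability. No paired analysis was possible because no peaks of the GFP libraries, which share replicate numbers with the NEUROD2 libraries, were analysed here.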
